A study of Mus musculus with 168 samples.

Results

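Motor neurons of the hypoglossal nucleus, the brainstem group that moves the tongue, were compared between mice with spinal muscular atrophy (SMA) and littermate controls at postnatal day 10. All samples that the labels place in these groups at that age were taken: 5 SMA mice and 4 control mice, with 1 library per mouse, which makes 9 of the 168 libraries of the series. The SMA mice were delta7 animals, which lack both copies of mouse Smn1 (Smn-/-) and carry human SMN2 (SMN2+/+) together with a human SMN transgene without its seventh exon (SMN∆7+/+). The controls were Smn+/+ and carried SMN2+/+ and SMN∆7+/+ as well, so both groups had the human transgenes and neither was a mouse without them. Cells were cut by laser from frozen, stained sections, about 150 cells to a tube, and polyA RNA was sequenced after Smart-seq2, a method that copies full-length transcripts. The same comparison in hypoglossal neurons at day 2 (4 control and 6 SMA mice) and day 5 (4 and 4), and in vagus (4 and 5), facial (4 and 4) and lumbar motor neurons (4 and 5) at day 10, was used to ask where the day 10 response of hypoglossal neurons differed.

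SMN is a protein found in all cells that loads the ring of Sm proteins onto the small nuclear RNAs of the spliceosome. SMA follows from too little of it, and spinal motor neurons are the cells most visibly lost. The transcription factor p53 is held at a low level by Mdm2 and, when it accumulates, switches on genes for cell cycle arrest, cell death and repair, several of which serve as readouts of its activity in neurons, which do not divide.

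Values are reads scaled to transcript length and to the total reads of the library (RPKM). Depth, recovered from the steps between low values, was 3.06 to 9.42 M reads in controls and 3.37 to 5.46 M in SMA samples. Control mouse 253 had the fewest reads, and control mouse 247 had the fewest genes above 0, 14699 against 15921 to 17378 in the other 8 mice. By Xist and Y-linked genes the controls were 2 males and 2 females and the SMA mice 1 male and 4 females. The table gives 39410 genes, of which 17057 were at 0 in all 9 mice, and 16486 genes with at least 1 RPKM in at least 4 of the 27 hypoglossal samples were tested. Each library came from its own mouse. Correlation between mice across tested genes had a median of 0.918 within genotypes and 0.910 between them, and a maximum of 0.944.

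The captured cells carried the RNAs of motor neurons. Chat, the enzyme that makes acetylcholine, had 30.7, 62.2, 40.7 and 29.4 RPKM in control mice 247, 252, 253 and 254, the order used throughout. In SMA mice 196, 199, 249, 250 and 258, again in that order throughout, it had 19.0, 36.8, 26.3, 29.4 and 21.3 RPKM. The heavy neurofilament gene Nefh lay between 270.1 and 531 RPKM in all 9 mice. Phox2a and Tbx20, which mark visceral and branchial motor neurons, stayed at or under 1.12 RPKM in every mouse.

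Smn1, the deleted gene, had 19.5, 13.3, 29.3 and 44.7 RPKM in the controls and was listed at 0 in all 5 SMA mice. It is annotated as protein coding on chromosome 13, 100124852 to 100137690 on the plus strand (GRCm38). The labels of all 9 libraries matched the gene. On the log2(RPKM + 1) scale used for every difference below, Smn1 fell by 4.66 (SE 0.424, limma, adjusted p = 3.6e-07). On this scale low values are compressed, so that a difference understates the change of a gene with few reads, and for a gene listed at 0 in one group it is no bound on the fold. The row of human SMN2 had a median of 115.6 RPKM in controls (range 77.4 to 131.5) and 122.0 in SMA mice (96.9 to 134.0), and the ranges overlapped. How reads shared by mouse Smn1 and the human SMN transgenes were handled is not given in the sources used here. The row may therefore not be SMN2 alone.

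Across the 16486 genes the comparison was narrow: 12 genes passed an adjusted p of 0.05 (0.0728% of those tested), 11 of them higher in SMA mice (0.0667%) and Smn1 alone lower (0.00607%). The 11 were Fas, Cdkn1a, Bglap2, Gtse1, Psrc1, Fam212b, Snord13, Plk2, Cox6b2, 9230114K14Rik and Trim72. For differences between genotypes, a rise or fall below means higher or lower than in controls of the same age. Without adjustment 1117 genes had a p under 0.05 (6.78%), 833 higher (5.05%) and 284 lower (1.72%). The values of the 9 mice did not overlap between genotypes in 307 genes that were higher in SMA (1.86%) and 108 that were lower (0.655%). Of all tested genes 59.1% had a positive difference, and the median gene lay at 0.08. Under quantile normalization that median was −0.01. Without control mouse 253 the count of genes past the threshold was 23, among them 11 of the 12. With only the day 10 groups in the fit the count was 7, of which Smn1, Fas, Cdkn1a and Bglap2 were among the 12. Dcxr, BB218582 and Ccl7 were gained there. Gtse1, Psrc1, Fam212b, Snord13, Plk2, Cox6b2, 9230114K14Rik and Trim72 were lost.

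**Figure D1:**
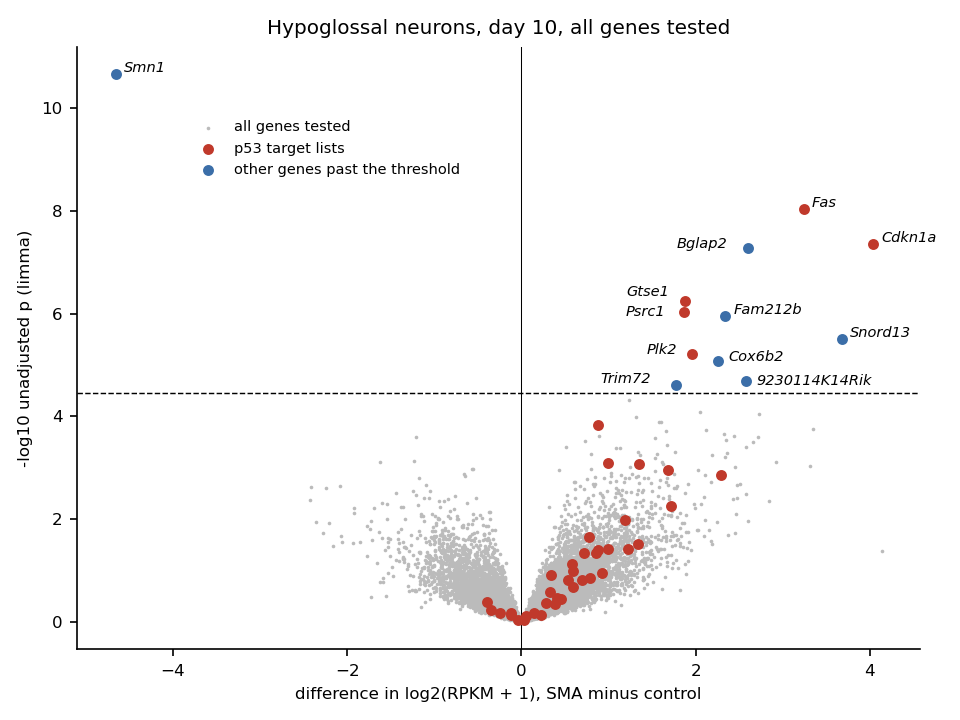
Difference between genotypes at day 10 (horizontal axis, log2(RPKM + 1), SMA minus control) against the unadjusted limma p (vertical axis, −log10) for the 16486 genes tested; the dashed line marks the adjusted p of 0.05. Smn1 stands alone on the left, and the 11 genes above the line on the right include 5 of the p53 target lists (red).

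The first p53 list held targets for growth arrest and for feedback on p53 itself. Of 18 members, 17 passed the filter, 4 rose (Cdkn1a, Gtse1, Psrc1 and Plk2), and 10 had an unadjusted p under 0.05 with a positive difference, against 5.05% of all genes. The median difference of the 17 was 0.86, beside 0.08 for all genes. The lists were chosen with earlier results of these data known, so these counts describe the genes and are no independent evidence of their direction.

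Cdkn1a encodes p21, the inhibitor of cyclin-dependent kinases and the best known target of p53. It had 0.120, 7.23, 13 and 9.30 RPKM in the controls and 74.0, 77.1, 113, 139 and 101 RPKM in the SMA mice. Every SMA mouse was above every control, and the control with almost no Cdkn1a was mouse 247. Cdkn1a rose by 4.04 (SE 0.534, 95% interval 2.94 to 5.13, adjusted p = 0.000213). Plk2, a polo-like kinase that p53 induces and that acts at synapses in neurons, had 1.97, 8.17, 5.85 and 2.62 RPKM in controls and 23.4, 15.7, 20.9, 18.3 and 16.8 RPKM in SMA mice. It rose by 1.96 (SE 0.349, adjusted p = 0.0113), and the groups did not overlap.

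Gtse1 and Psrc1 were close to absent from the controls. Gtse1, a microtubule-associated protein that acts back on p53 and p21, had 0.169, 0, 0.361 and 0 RPKM in controls and 2.62, 3.10, 3.60, 2.58 and 3.83 RPKM in SMA mice. It rose by 1.87 (SE 0.286, adjusted p = 0.00184). Psrc1, a microtubule protein first found as a p53-regulated gene, was listed at 0 in 3 controls, had 0.412 RPKM in control mouse 252, and had 2.18, 3.25, 5.62, 3.28 and 1.55 RPKM in the SMA mice. It rose by 1.86 (SE 0.294, adjusted p = 0.00257). Both stayed at a few RPKM in SMA mice, far below Cdkn1a per unit of length.

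The members that did not pass the threshold leaned the same way, with exceptions. Ccng1, which encodes cyclin G1, had 20.2, 12.5, 6.06 and 16.8 RPKM in controls and 26.7, 29.6, 30.3, 26.5 and 20.0 RPKM in SMA mice, a difference of 0.99 (adjusted p = 0.267). Ckap2, a spindle protein, was at 0 in each control, with 0.650 to 3.46 RPKM in SMA mice (difference 1.68, adjusted p = 0.298). Mdm2, the ligase that limits p53, lay between 5.14 and 20.7 RPKM in controls and between 10.1 and 28.2 RPKM in SMA mice (difference 0.78, adjusted p = 0.661). Btg2, Trp53inp1 and Ppm1d also had an unadjusted p under 0.05 with a positive difference. Gadd45a, a stress gene that other pathways drive as well, and Ccng2 had the negative differences of this list, −0.39 and −0.04.

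**Figure D2:**
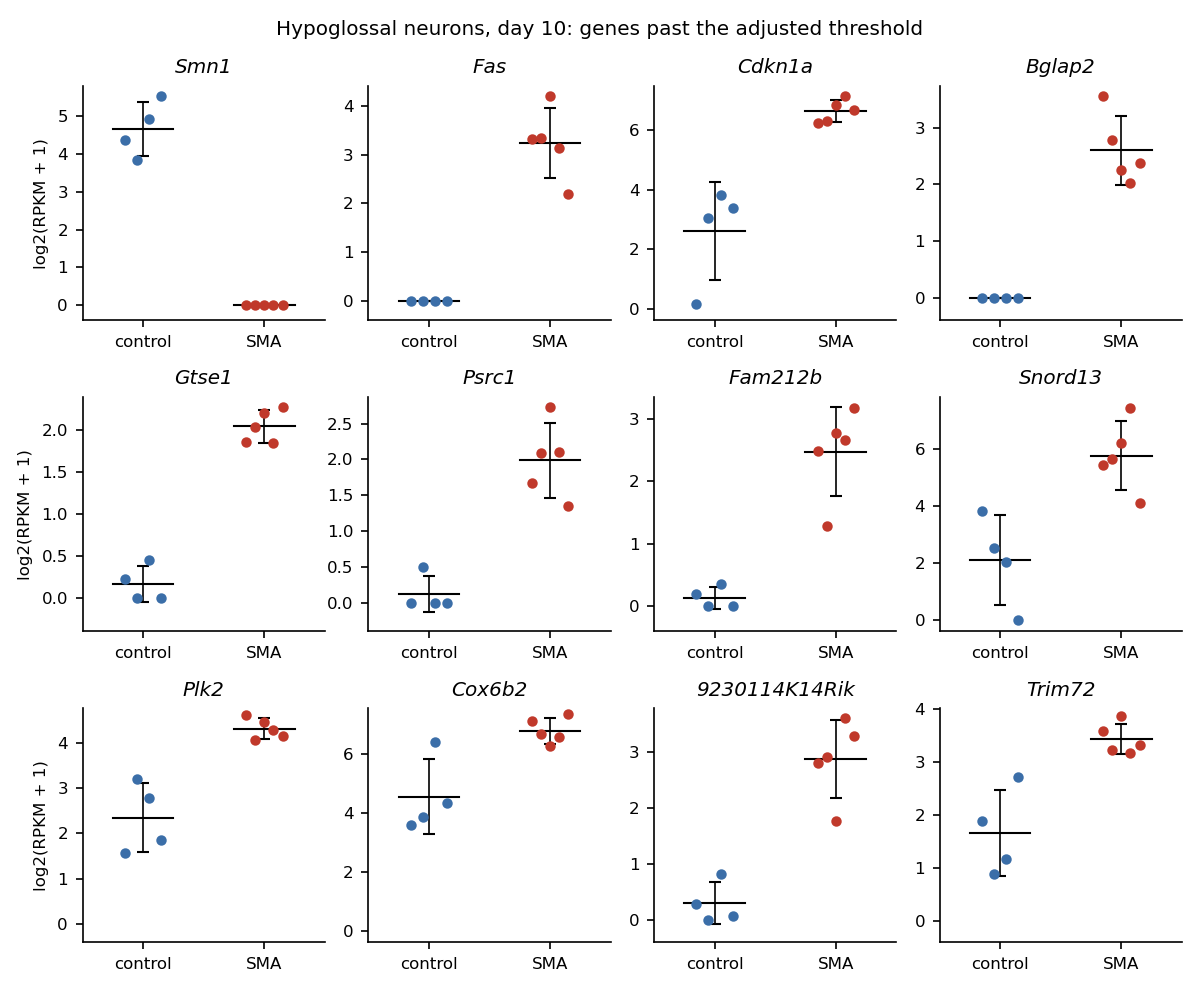
Levels of the 12 genes past the threshold in each mouse at day 10 as log2(RPKM + 1), with its own vertical scale for each gene; points are mice (4 control, 5 SMA), bars the mean and SD. The points of control and SMA mice are separate for every gene except Cox6b2, where control mouse 253 lies within the SMA range.

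To set these genes beside the DNA in front of them, the sequence letters of p53's half-site were searched on both strands in the RefSeq promoters (GRCm38.p6), each 250 bases before to 50 after a transcript start. The half-site occurred in 8.36% of 32851 promoters. Among genes, 8.34% of the 10459 tested genes with a promoter held at least 1. Of the p53 list members tested, 33 were matched and 13 held one (39.4%), and of the 11 genes that rose, 7 were matched and 2 held one, Cdkn1a and Gtse1. A pair of half-sites with at most 13 bases between them were in 0.0731% of promoters, and Cdkn1a was the single list member with such a pair. The stretches around the half-sites of list members with an unadjusted p under 0.05 are shown because they carry these letters next to the genes described; the half-site is in capitals and each runs 5′ to 3′ on the strand of its gene.
Cdkn1a, plus strand, chr17:29090896-29090925, half-site from −73: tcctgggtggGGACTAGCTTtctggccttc
Cdkn1a, plus strand, chr17:29090918-29090947, half-site from −51: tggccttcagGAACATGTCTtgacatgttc
Gtse1, plus strand, chr15:85859945-85859974, half-site from 9: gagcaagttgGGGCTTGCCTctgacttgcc
Ccng1, minus strand, chr11:40755452-40755481, half-site from −185: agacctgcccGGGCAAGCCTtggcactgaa
Mdm2, minus strand, chr10:117710925-117710954, half-site from −186: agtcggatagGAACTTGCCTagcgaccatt
Ckap2, minus strand, chr8:22186003-22186032, half-site from −203: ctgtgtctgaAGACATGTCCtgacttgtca
Ppm1d, plus strand, chr11:85311112-85311141, half-site from −132: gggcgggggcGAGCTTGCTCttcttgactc
Positions count from the start of the transcript whose promoter holds the half-site. Cdkn1a and Gtse1 each have a further promoter, at another transcript start, that held 0 half-sites (chr17:29093519-29093818 and chr15:85859457-85859756). Ei24 and Polk, described below, hold one each as well. A match is a description of letters and not of binding, and sites outside the window were not searched.

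Among the p53 targets that promote cell death, Fas rose, and Bax and Bbc3 did not pass the test. Pmaip1, described below, did not pass the filter and was not tested. Fas, the receptor that starts the extrinsic death pathway (chromosome 19, 34290666 to 34327772, plus strand), was at 0 in each of the 4 controls, with 8.97, 9.13, 17.4, 7.78 and 3.60 RPKM in the SMA mice. Its difference was 3.24 (SE 0.395, adjusted p = 7.7e-05), the second lowest p of the comparison after Smn1. Bax, the pore-forming protein of the mitochondrial pathway, had 41.8 to 108 RPKM in controls and 48.6 to 84.6 RPKM in SMA mice, a difference of 0.03 (adjusted p = 0.999). Bbc3, which encodes Puma, had 0.542 to 4.92 RPKM in controls and 2.62 to 6.07 RPKM in SMA mice (difference 0.79, adjusted p = 0.840).

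The other members lay between these. Perp, a membrane protein, had 4.23, 2.48, 7.24 and 10.2 RPKM in controls and 14.8, 14.7, 18.6, 11.1 and 10.5 RPKM in SMA mice without overlap (difference 1.19, adjusted p = 0.573). Apaf1, the scaffold of the apoptosome, had 1.06 to 2.73 RPKM in controls and 3.08 to 14.2 RPKM in SMA mice, also without overlap (difference 1.34, adjusted p = 0.686). Pidd1, listed as Lrdd, had a difference of 1.72 and Ei24 one of 0.72, each with an unadjusted p under 0.05. In all, 10 of 13 members passed the filter, and 10 of these 10 had a positive difference (beside 59.1% of all genes), with a median of 0.76. An unadjusted p under 0.05 in the higher direction was met by 5 (50%, beside 5.05% of all genes). Pmaip1 (Noxa), the death receptor gene Tnfrsf10b and Eda2r did not pass the filter and were listed at 0 in all controls. Pmaip1 had 1.63, 2.98, 2.69, 0.858 and 0.532 RPKM in the SMA mice, and Tnfrsf10b had 0.711, 0.231, 1.03, 0.456 and 0.444 RPKM. When the filter was dropped, both passed the threshold.

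In the list for repair and metabolism none of the 15 members tested passed the threshold, and the median was 0.58. An unadjusted p under 0.05 with a positive difference was met by 4 (26.7%, beside 5.05% of all genes). Dcxr, a carbonyl reductase, had 19.4, 14.8, 25.7 and 19.9 RPKM in controls and 92.3, 106, 86.3, 94.0 and 122 RPKM in SMA mice. The groups did not overlap, with a difference of 2.29, the adjusted p was 0.326, and with the day 10 groups alone in the fit Dcxr passed the threshold. Bloc1s2, a subunit of a lysosome-related complex, had 12.7 to 22.8 RPKM in controls and 29.2 to 35.3 RPKM in SMA mice (difference 0.88, adjusted p = 0.129). Polk, a polymerase that copies past damaged bases, had 0.163 to 2.48 RPKM in controls and 2.07 to 7.72 RPKM in SMA mice (difference 1.35, adjusted p = 0.267). Ddb2, Abhd4, Fdxr and Tigar (listed as 9630033F20Rik) had negative differences, from −0.35 to −0.12.

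Taking the lists as 1 set of 47 genes, 42 were tested, 36 of them with a positive difference (85.7%, beside 59.1% of all genes) and a median of 0.71. An unadjusted p under 0.05 in the higher direction was met by 19 (45.2%), and values did not overlap in 12 (28.6%, beside 1.86%). Fas, Gtse1 and Psrc1 reached at most 0.112, 0.361 and 0.412 RPKM in any hypoglossal control of any age. They passed the filter of 1 RPKM only through SMA mice, which favours a positive difference. Such members enter these counts and those of the separate lists, so the counts are no test of direction. Leaving out the 5 that rose, the other 37 had a median of 0.59, and 31 were positive. Across 17 alternatives the median of all lists ran from 0.58 under quantile normalization to 0.87 with a pseudocount of 0.1.

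The 6 other genes that rose are in no p53 list used here. Bglap2 is a copy of the osteocalcin gene, known from bone (chromosome 3, 88377736 to 88378699, minus strand). It was at 0 in each control, and had 10.8, 5.84, 3.78, 3.07 and 4.19 RPKM in the SMA mice, a difference of 2.60 (SE 0.347, adjusted p = 0.000213). Its neighbour Bglap was also at 0 in all controls and had 13.7, 14.3, 9.44, 0.469 and 0 RPKM in SMA mice (adjusted p = 0.166). The transcripts of the 2 copies are identical at 434 of 439 aligned bases (98.9%), so the split of reads between them is uncertain.

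Fam212b, now named Inka2, an inhibitor of the kinase Pak4, had 0.147, 0, 0.279 and 0 RPKM in controls and 4.63, 1.44, 5.87, 5.31 and 8.03 RPKM in SMA mice. It rose by 2.34 (SE 0.373, adjusted p = 0.00263) without overlap. Trim72, a ubiquitin ligase known for membrane repair in muscle, had 2.72, 0.853, 1.24 and 5.57 RPKM in controls and 11.0, 8.44, 13.7, 8.02 and 9.04 RPKM in SMA mice. Its rise of 1.77 (SE 0.348, adjusted p = 0.0337) fell below the threshold in 14 of 17 alternatives. The long non-coding RNA 9230114K14Rik had 0.217, 0, 0.773 and 0.0502 RPKM in controls and 5.94, 6.5, 2.38, 11.1 and 8.78 RPKM in SMA mice, a rise of 2.57 (SE 0.498, adjusted p = 0.0306) that 11 of 17 alternatives lost. Trim72, 9230114K14Rik and Cdkn1a each overlap a gene on the other strand, and whether the counting used strand is not given in the sources used here.

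Cox6b2, the testis form of a subunit of cytochrome c oxidase, had 11.0, 13.5, 83.3 and 19.1 RPKM in controls and 139, 100.5, 75.5, 94.2 and 163 RPKM in SMA mice. It was higher by 2.25 (SE 0.409, adjusted p = 0.0136), with control mouse 253 inside the SMA range. Its mean in SMA mice was 113, 122 and 114 RPKM at days 2, 5 and 10. In controls the mean was 78.5, 92.0 and 31.7 RPKM, so the day 10 difference goes with a lower control level and not with a higher SMA level. The other nuclear genes of oxidative phosphorylation did not move with it: of 75 tested, Cox6b2 was the single one past the threshold, and the median was −0.01. The call was lost in 6 of 17 alternatives, among them leaving out any 1 of control mice 247, 252 and 254 or SMA mouse 258.

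Snord13 is a small nucleolar RNA that guides acetylation of the ribosomal RNA of the small subunit. Small nucleolar RNAs carry no poly(A) tail, and the libraries were made from polyA RNA. Its level was 13.3, 4.86, 3.15 and 0 RPKM in controls and 43.3, 49.4, 74.2, 177 and 16.2 RPKM in SMA mice. It rose by 3.68 (SE 0.626, adjusted p = 0.00650), and without control mouse 254, the control at 0, the adjusted p was 0.0516. Snord118, the U8 RNA of ribosomal RNA processing, had 0, 2.5, 9.71 and 3.94 RPKM in controls and 5.56, 8.15, 11.0, 41.3 and 22.9 RPKM in SMA mice (difference 2.01, adjusted p = 0.651). Of 121 small nucleolar and Cajal body RNAs, 46 passed the filter. Snord13 was the 1 past the threshold. A positive difference was found in 26 (56.5%, beside 59.1% of all genes), and the median was 0.24.

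Of the 9 genes of the SMN complex, Smn1 was the one past the threshold. Gemin4 had 0, 0, 5.60 and 0 RPKM in controls and 17.7, 3.92, 0, 5.29 and 34.9 RPKM in SMA mice (difference 2.19, adjusted p = 0.689), and the other members had differences between −0.42 and 0.73. Among 22 genes of the U2 particle and the Sm ring none passed, and 8 had an unadjusted p under 0.05 in the higher direction (36.4%, beside 5.05% of all genes). Of the 22, 19 were positive (86.4%, beside 59.1% of all genes) with a median of 0.31. Values did not overlap in 3 of the 22 (13.6%, beside 1.86%).

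Snrpa1, the U2 A′ protein, led this list. It had 34.9, 41.2, 54.2 and 34.3 RPKM in controls and 73.3, 93.9, 96.0, 79.1 and 110.0 RPKM in SMA mice. The groups did not overlap, and the difference was 1.13 (SE 0.279, adjusted p = 0.189). Sf3b5, Sf3a2 and Sf3b6 (listed as 0610009D07Rik), proteins of the SF3 complexes of U2, followed with differences of 0.72, 1.09 and 0.53.

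**Figure D3:**
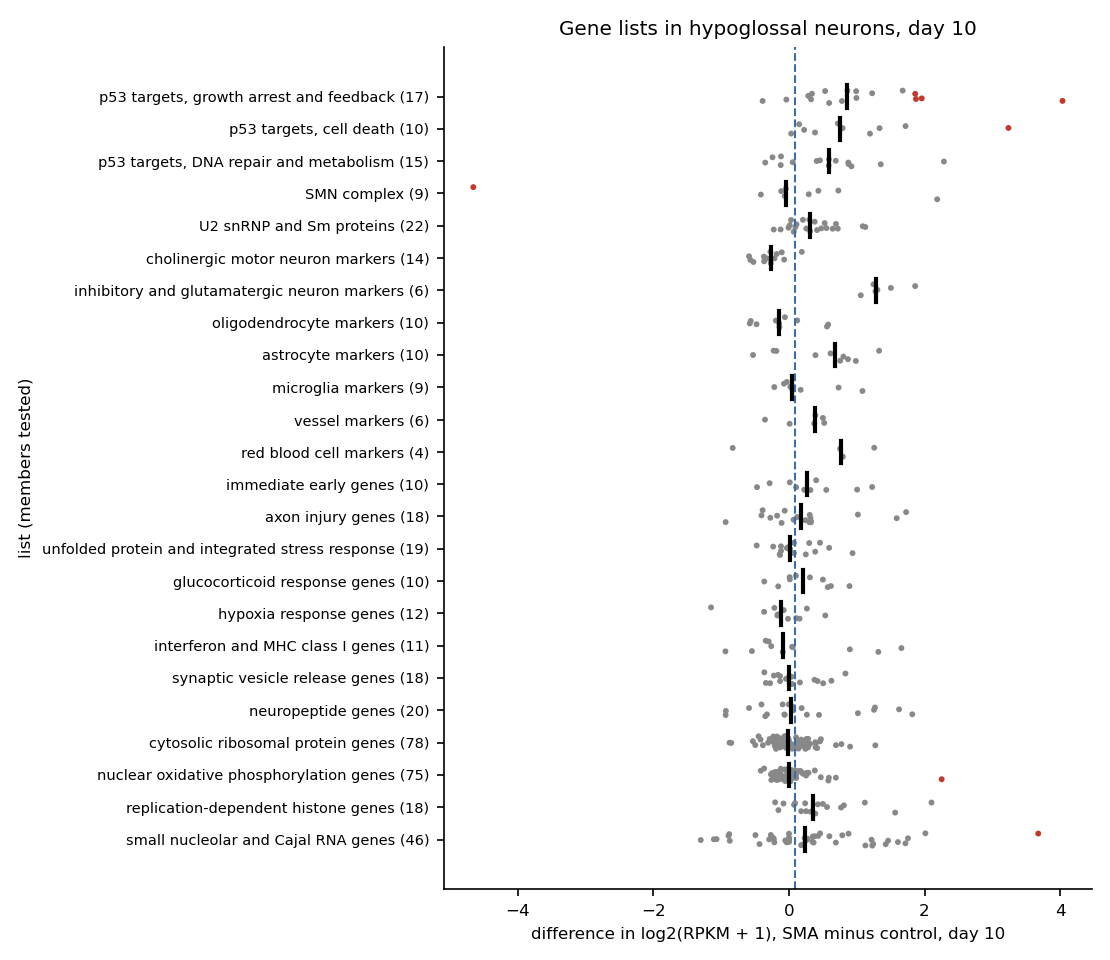
Differences between genotypes at day 10 (horizontal axis, log2(RPKM + 1), SMA minus control) for the tested members of each list, whose number is in brackets; points are genes, red past the threshold, black bars the list medians, and the dashed line the median of all genes, 0.08. The medians of the p53 lists lie at 0.58 to 0.86 and that of the cholinergic markers at −0.27.

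Of 14 cholinergic and motor neuron markers tested, 13 had a negative difference, so that 7.14% were positive beside 59.1% of all genes. None passed the threshold, and the median was −0.27 beside 0.08 for all genes. Nefh had 443, 368, 386 and 531 RPKM in controls and 270.1, 340.2, 328, 382 and 343 RPKM in SMA mice (difference −0.37, adjusted p = 0.562). Calcb, which encodes a form of the peptide CGRP, had a difference of −0.59 and the medium neurofilament gene Nefm one of −0.37, each with an unadjusted p under 0.05. Isl1 was the member with a positive difference, 0.19. The mean log2 level of the 14 genes was 7.51 in controls and 7.23 in SMA mice, a difference of −0.28 (exact permutation test, two-sided, unadjusted p = 0.0476, n = 4 and 5; the smallest p this design can give is 0.00794). On summed RPKM the exact permutation p was 0.0714, and leaving out any 1 mouse except SMA mouse 199 also took it above 0.05. In material pooled from many cells, fewer cells of a type and less RNA per cell cannot be told apart.

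Markers of other neurons were higher in SMA samples at day 10 on the mean log2 scale. Slc17a6, the vesicular transporter of glutamatergic neurons, had 3.46, 7.84, 11.5 and 8.12 RPKM in controls and 24.2, 21.4, 17.4, 22.3 and 26.7 RPKM in SMA mice without overlap (difference 1.5, adjusted p = 0.391). Gad2, an enzyme that makes GABA, had 1.36, 6.01, 15.3 and 6.18 RPKM in controls and 24.4, 20.9, 8.06, 7.01 and 25.7 RPKM in SMA mice (difference 1.28, adjusted p = 0.661). All 6 markers of inhibitory and glutamatergic neurons had a positive difference (beside 59.1% of all genes), with a median of 1.29, and none passed the threshold. Their summed RPKM was 6.06 in control mouse 247 and 40 to 69.6 in the other controls, and 56.4 to 141 in SMA mice. Their mean log2 level was higher in every SMA mouse than in every control (difference 1.38, exact permutation p = 0.00794, adjusted p = 0.0238 over the 6 marker lists of other cells). On summed RPKM the exact permutation p was 0.0317 and the adjusted p 0.190, so the call was lost. At day 2 the median difference of the 6 genes was −0.14, and at day 5 it was −1.29, with 1 of 6 positive. At day 5, 3 of 6 were lower at an unadjusted limma p under 0.05, beside 394 of the 16486 genes tested.

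For the other cell types the picture was mixed. Astrocyte markers had a median difference of 0.68, with 7 of 10 positive (70%, beside 59.1% of all genes). Slc1a3, a glutamate transporter, had 3.86, 7.77, 6.85 and 6.56 RPKM in controls and 10.4, 13.6, 11.3, 9.12 and 13.1 RPKM in SMA mice (difference 0.80, adjusted p = 0.493). The mean log2 level was higher by 0.48 (exact permutation p = 0.00794, adjusted p = 0.0238), whereas the summed RPKM, in which Aldoc and S100b dominate, was lower in SMA mice, at 2041 to 2539 beside 2160 to 2805 in controls. Oligodendrocyte markers summed to 202 to 900.4 RPKM in controls and 288 to 763 RPKM in SMA mice, and microglia markers to 0.605 to 20.5 and 2.42 to 38.6 RPKM. Vessel markers summed to 30.2 to 62.4 and 32.6 to 58.6 RPKM, and red blood cell genes to 35.3 to 125 and 40.4 to 507 RPKM. For these 4 lists the exact permutation p lay between 0.111 and 0.905. The part of other cells in the differences described above was not tested. Without control mouse 247, Cdkn1a, Fas, Bglap2, Gtse1, Psrc1, Fam212b and Snord13 stayed past the threshold, and Plk2, Cox6b2, 9230114K14Rik and Trim72 did not. Each of the lost genes was also lost when some other mouse was left out. Whether these losses have to do with other cells was not tested.

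**Figure D4:**
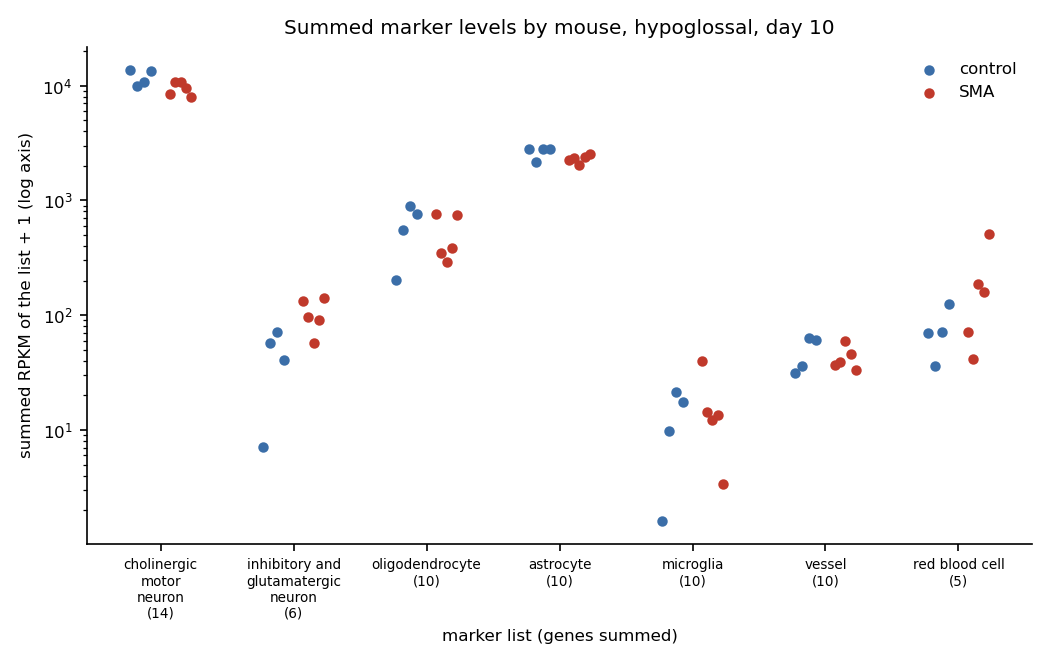
Summed RPKM plus 1 of marker lists in each mouse at day 10 on a log axis, with the number of genes summed in brackets; points are mice, blue control and red SMA. The cholinergic markers sum to 7871 to 13769 RPKM, and the markers of inhibitory and glutamatergic neurons are lowest in control mouse 247 at 6.06.

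Lists of other stress responses gave little. Of 18 axon injury genes none passed the threshold and the median was 0.18. Sprr1a, a marker of regenerating axons, had 3.14, 0, 33.3 and 4.48 RPKM in controls and 28.9, 36.6, 23.9, 12 and 3.49 RPKM in SMA mice (adjusted p = 0.793). Of 19 genes of the unfolded protein and integrated stress responses none had an unadjusted p under 0.05, and the median was 0.01. Glucocorticoid response genes had a median of 0.21 and hypoxia response genes one of −0.12, with none past the threshold. Tsc22d3, a glucocorticoid-induced gene, had 216 to 248 RPKM in controls and 170.2 to 184 RPKM in SMA mice without overlap (difference −0.36, adjusted p = 0.566).

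Interferon and MHC class I genes had a median of −0.09, with H2-K1 at 0.374, 5.84, 7.00 and 3.40 RPKM in controls and 10.5, 8.29, 8.96, 7.4 and 14.2 RPKM in SMA mice (difference 1.32, adjusted p = 0.466). Immediate early genes had a median of 0.27, none past the threshold. Of 20 neuropeptide genes 10 were positive (50%, beside 59.1% of all genes). Nts, which encodes neurotensin, had 473, 378, 280.5 and 411 RPKM in controls and 128, 204, 278, 354 and 118 RPKM in SMA mice (difference −0.93, adjusted p = 0.493), and Iapp, the amylin gene, was at 0 in each control and between 0 and 7.72 RPKM in SMA mice. Among 18 genes of synaptic vesicle release the median was 0.01. Vamp1, the vesicle protein of fast motor synapses, had 344 to 370.3 RPKM in controls and 239.6 to 321 RPKM in SMA mice without overlap (difference −0.34, adjusted p = 0.651). The 78 ribosomal protein genes tested had a median of −0.01 and none past the threshold. Of 67 replication-dependent histone genes 18 were tested, 15 of them with a positive difference (83.3%, beside 59.1% of all genes). Their median was 0.35, and Hist1h4i led them (2.10, adjusted p = 0.573).

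Outside the threshold, the genes whose mice did not overlap and that had at least 5 RPKM in the higher group are given as values. The 10 with the highest difference were Arsa, Ccl7, Crip1, Ptprv, Thbs3, Spc25, Cox11, Dcxr, 3010001F23Rik and Fchsd1, from 3.35 to 2.12. Arsa, the lysosomal enzyme arylsulfatase A, had 2.10, 5.29, 5.12 and 1.82 RPKM in controls and 75.1, 36.7, 59.3, 7.00 and 113 RPKM in SMA mice (adjusted p = 0.142). Ccl7, a monocyte chemokine, had 0, 1.05, 0 and 0 RPKM in controls and 13.6, 11.0, 4.07, 4.90 and 10.5 RPKM in SMA mice (adjusted p = 0.265). Crip1, a zinc-binding LIM protein, had 0, 0, 4.42 and 6.93 RPKM in controls and 13.9 to 22.0 RPKM in SMA mice (adjusted p = 0.0977). Ptprv, annotated as a processed transcript, lay at 0.0566 RPKM in control mouse 253, at 0 in the others and at 1.11 to 13.9 RPKM in SMA mice (adjusted p = 0.168).

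Among the 10 with the lowest difference were Gm11716, Gchfr, Mrap, Pabpn1_ann1, Tmem243, Timm21, Rabepk, Myadml2 and Slc2a1, from −2.42 to −1.15. Rabepk had 35.8, 34.0, 32.0 and 26.3 RPKM in controls and 7.34, 12.5, 15.2, 13.5 and 22.9 RPKM in SMA mice (difference −1.18, adjusted p = 0.485). Slc2a1, the glucose transporter GLUT1, had 14.3, 8.35, 8.51 and 14.3 RPKM in controls and 7.43, 4.77, 4.27, 6.35 and 1.46 RPKM in SMA mice (difference −1.15, adjusted p = 0.562). Their adjusted p-values lay between 0.365 and 0.862, so none of these falls stood above the spread between mice after adjustment.

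The genes that rose at day 10 were followed back to days 2 and 5, where none of them passed the threshold. Cdkn1a had 27.4 ± 7.97 RPKM in controls and 40.1 ± 14.5 in SMA mice at day 2 (SD, n = 4 and 6), and 15.5 ± 9.25 and 97.4 ± 55.5 at day 5 (n = 4 and 4). At day 10 it had 7.42 ± 5.43 and 101 ± 26.9 (n = 4 and 5), so that the control means were lower at each later age. The difference was 0.51 at day 2, 2.66 at day 5 (adjusted p = 0.306) and 4.04 at day 10. Fas had differences of 0.33, 1.36 and 3.24 in that order, and Bglap2, Psrc1, Fam212b and Plk2 stayed at or under 0.49 at both earlier ages.

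Snord13 had differences of 2.63 at day 2 and 1.85 at day 5, and Snrpa1 of 1.25 and 1.26, close to its value at day 10. The p53 lists had a median of 0.21 at day 2 and 0.42 at day 5, beside 0.05 and 0.04 for all genes, and 2 and 8 of the 42 had an unadjusted p under 0.05 in the higher direction (5.62% and 3.62% of all genes). Of the 42, 33 were positive at day 2 and 34 at day 5, beside 54.7% and 54.4% of all genes. In either direction 9.63% of all genes had an unadjusted p under 0.05 at day 2 and 6.01% at day 5. Within controls, 0 genes rose and 2 fell from day 2 to day 5 (0.0121%). At day 2, 6 genes passed the adjusted threshold (0.0364%), none of them among the 11 that rose at day 10, and at day 5 Smn1 alone did (0.00607%). The change of the genotype difference with age was tested directly: limma called 0 genes for day 10 against day 2 (1182 with an unadjusted p under 0.05, 7.17%) and 0 for day 10 against day 5 (954, 5.79%). For Cdkn1a the adjusted p of these tests was 0.201 and 0.877, and for Fas 0.201 and 0.668. A difference in onset, of these or the other genes, was therefore not shown.

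**Figure D5:**
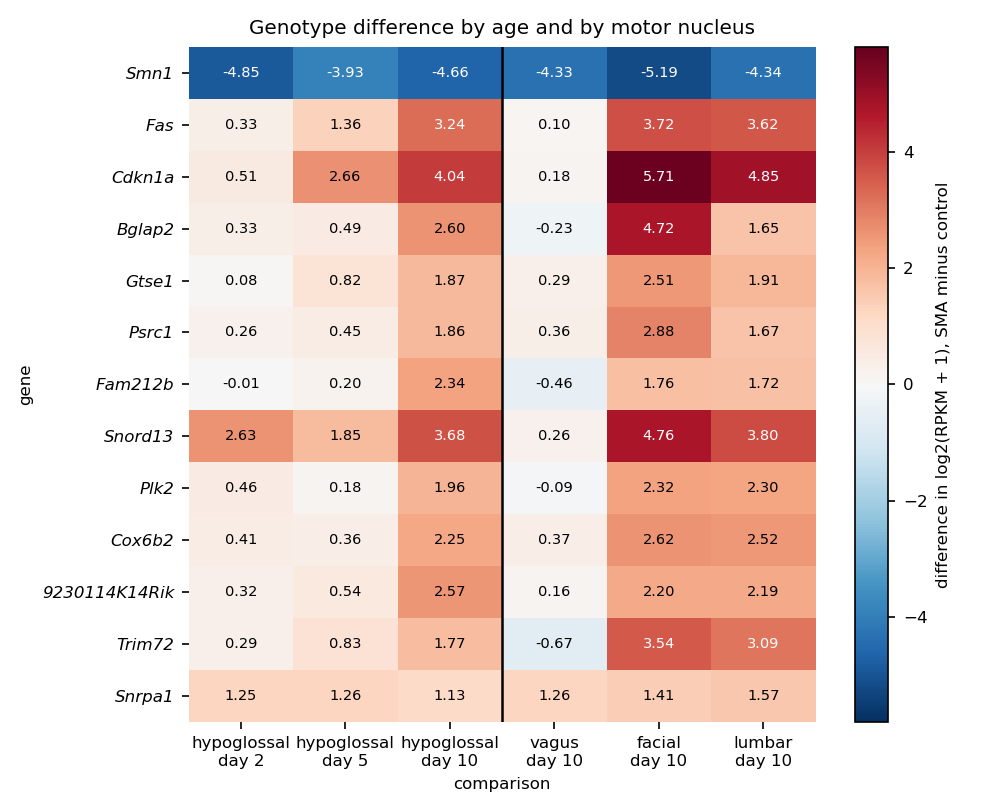
Differences between genotypes, printed in each cell as log2(RPKM + 1), SMA minus control, for the 12 genes past the threshold in hypoglossal neurons at day 10 and for Snrpa1, at 3 ages and in 3 other motor populations at day 10. The hypoglossal, facial and lumbar columns of day 10 are alike in sign for every gene, and the vagus column lies between −0.67 and 0.37 for the 11 genes that rose.

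At day 10 hypoglossal neurons were set beside 3 other motor populations, all from the same animals except that facial neurons lacked SMA mouse 250. In vagus neurons, Fas was at 0 RPKM in all 4 controls and at 0.0747 ± 0.135 in SMA mice (SD, n = 5), and Cdkn1a had 40 ± 16.7 in controls and 43.3 ± 14.0 in SMA mice (SD, n = 4 and 5). In facial neurons Fas had 0.625 ± 0.512 and 20.3 ± 6.91 RPKM (SD, n = 4 and 4), and Cdkn1a 6.85 ± 4.07 and 354 ± 89.0. In lumbar neurons Fas was at 0 in controls and at 13 ± 6.48 in SMA mice (SD, n = 4 and 5), and Cdkn1a had 6.90 ± 5.73 and 199.8 ± 56.9. The control level of Cdkn1a in vagus neurons thus lay above the hypoglossal control range of 0.120 to 13, and all 11 genes had differences between −0.67 and 0.37 in vagus neurons. The median of the p53 lists was 0.04 in vagus, 0.97 in facial and 0.65 in lumbar neurons, beside 0.71 in hypoglossal neurons.

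The difference between populations was tested for each gene. Between hypoglossal and vagus neurons 3 of 15244 genes passed (0.0197%, with 831 at an unadjusted p under 0.05, 5.45%). For Fas the genotype difference was larger in hypoglossal neurons by 3.14 (SE 0.46, adjusted p = 0.0114), for the non-coding RNA BB218582 by 3.89 (adjusted p = 0.0114) and for Ccl7 by 3.00 (adjusted p = 0.0308). Because the samples come from the same animals, the fit was repeated with the mouse as a replicate block, and then 0 passed, with adjusted p of 0.290 for Fas, 0.0580 for BB218582 and 0.290 for Ccl7. Cdkn1a differed by 3.86 (adjusted p = 0.140, and 0.299 with the block), Bglap2 by 2.83 (0.126) and Fam212b by 2.80 (0.141).

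BB218582 was at 0 in each hypoglossal control, with 4.22, 3.22, 2.27, 6.69 and 4.95 RPKM in SMA mice, whereas vagus neurons had 14.3 ± 3.09 RPKM in controls and 4.96 ± 2.94 in SMA mice (SD, n = 4 and 5). Ccl7 had at most 4.29 RPKM in any mouse of the other 3 populations. In hypoglossal neurons its controls had 11.7 ± 7.59 RPKM at day 2 and 7.87 ± 5.90 at day 5 (SD, n = 4 each), and 0.263 ± 0.526 at day 10. SMA mice had 9.22 ± 8.26, 12.9 ± 7.56 and 8.82 ± 4.14 RPKM at days 2, 5 and 10 (SD, n = 6, 4 and 5). The day 10 difference of Ccl7 thus goes with a lower control level.

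Between hypoglossal and facial neurons 2 of 15097 genes passed (0.0132%, with 891 unadjusted, 5.9%), and the same number with the mouse as a block. The first was 2010001M06Rik, now named Abhd11os, a long non-coding RNA (chromosome 5, 135012122 to 135013157). It had 15.7, 48.3, 64.9 and 77.6 RPKM in hypoglossal controls and 38.6, 37.0, 28.0, 66.9 and 61.0 RPKM in SMA mice, a difference of −0.02. Facial neurons had 0.297 ± 0.593 RPKM in controls and 28.1 ± 9.88 in SMA mice (SD, n = 4 and 4), so the genotype difference was smaller in hypoglossal neurons (hypoglossal minus facial −4.52, SE 0.60, adjusted p = 0.00884, and 0.0138 with the block). The call was lost in 3 of 13 alternatives, without mouse 199, 249 or 252. Every facial control was below every hypoglossal control.

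The other was Rasa1, a GTPase-activating protein for Ras. It had 21, 23.7, 20.7 and 20.6 RPKM in hypoglossal controls and 105, 103, 67.7, 95.4 and 17.9 RPKM in SMA mice, with SMA mouse 258 below all controls. In facial neurons it had 80.9 ± 13.7 RPKM in controls and 18.6 ± 3.75 in SMA mice (SD, n = 4 and 4), and the genotype differences differed by 3.65 (SE 0.54, adjusted p = 0.0175, and 0.0344 with the block). The call was lost in 8 of 13 alternatives, namely without a filter and in 7 of 9 fits that left out 1 mouse, all but those without mouse 250 or 258. Within a genotype Rasa1 ranged widely in other groups. At day 10 vagus neurons had 29.3 to 125.2 RPKM in controls and 10.01 to 109.9 in SMA mice. Lumbar neurons had 17.6 to 111.8 and 15.2 to 70.9 RPKM. In hypoglossal neurons at day 2 it had 22.7 to 86.05 RPKM in controls and 21.7 to 151.2 in SMA mice. At day 5 SMA mice had 25.2 to 94.1 RPKM, and controls lay closer together (23.3 ± 5.79, SD, n = 4). The source of this spread was not tested. Rasa1 overlaps Ccnh on the other strand. Between hypoglossal and lumbar neurons limma called 0 of 15218 genes (0%, with 956 at an unadjusted p under 0.05, 6.28%), and 0 with the block. Cdkn1a differed from lumbar neurons by −0.82 and from facial neurons by −1.67, and Bglap2 from facial neurons by −2.12 (adjusted p = 0.276). Calls between populations moved with single mice and ran from 0 to 5.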

How the data were processed

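The authors deposited one table of RPKM (reads per kilobase of transcript, scaled to the library) with 1 column per library, and per the submitters' processing notes STAR 2.4.1c and the builds mm10 and hg19 were used. The read counter and the annotation are not given in the sources used here. Depth was recovered from the steps of low values of single-transcript genes, of which 75.3% to 81.0% lay within 0.02 of a whole read in the 9 samples. No count test was run, since RPKM are not counts. The limma p-values within hypoglossal neurons rest on the spread between mice within groups, pooled over the hypoglossal samples of all ages. That spread is also adjusted with information from all genes, so it is not that of the 9 day 10 mice alone.

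limma 3.58.1 in R 4.3.3 (lmFit, eBayes with trend) was fitted to log2(RPKM + 1) of all 27 hypoglossal samples in 6 groups of genotype and age. Genes with at least 1 RPKM in 4 samples entered, and p-values were adjusted by Benjamini and Hochberg with a threshold of 0.05. Differences between ages or populations were contrasts of contrasts. The script was tested on simulated data. Named genes were Smn1, those past the threshold, 10 each way among non-overlapping genes with a mean of at least 5 RPKM, up to 4 per list, and up to 4 per interaction and direction; members named beyond these were chosen after their values were seen. Lists of maturation genes could not be made, since 0 genes rose and 2 fell between days 2 and 5 in controls. The members and lists were chosen with earlier results of these data known. Some results are not reported here. Slc18a3 was not matched in the table. Pidd1, Tigar and Sf3b6 were matched through older symbols in RefSeq. Positions are from GENCODE M21 or, for Abhd11os, RefSeq.

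Mouse numbers in the labels mark the same animal across populations, so samples are paired by animal. Deviations of same-mouse samples from their group means correlated at −0.0285 to 0.113 across genes. Alternatives covered the pseudocount, filter, scaling, trend, groups in the fit, sex, mouse numbers, the block and leaving out each mouse. Leaving out each mouse from the marker levels, and summing RPKM in place of log2 values, were chosen after seeing the data.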

Additional observations from a re-analysis of the deposited data

Results flagged for a closer look

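Among the 84 genes named in the report with values, the highest or lowest mouse was set against the other mice of its group, by the gap to the nearest of them relative to the range of the group. In 168 groups, 12 of them at 0 throughout, 16 mice in 15 genes stood apart. In 8 of these cases all other mice of the group were at 0, so that any value above 0 stands apart, and the usual chance rate of about 1 in 20 groups does not apply to them. They were control mouse 252 for Psrc1 (0.412 RPKM), Ccl7 (1.05 RPKM) and 3010001F23Rik (1.17 RPKM), control mouse 253 for Ptprv (0.0566 RPKM) and Gemin4 (5.60 RPKM), control mouse 247 for Ddb2 (3.03 RPKM), SMA mouse 196 for Phox2a (1.12 RPKM) and SMA mouse 250 for Tbx20 (0.128 RPKM).

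In the other 8 cases the group had other mice above 0. Control mouse 247 was low for Ei24 (3.83 RPKM, others 15.1 to 19.3) and for Sf3a2 (2.71 RPKM, others 5.12 to 5.66). Control mouse 252 was high for Timm21 (15.1 RPKM, others 8.72 to 9.44) and Rasa1 (23.7 RPKM, others 20.6 to 21). SMA mouse 258 was low for Mdm2 (10.1 RPKM, others 21.8 to 28.2), Tmem243 (0.350 RPKM, others 3.03 to 4.79) and Rasa1 (17.9 RPKM, others 67.7 to 105). SMA mouse 249 was low for Ppm1d (2.35 RPKM, others 3.11 to 3.43).

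The genotype difference differed between populations by a test of the difference itself in 5 genes. Against vagus neurons the values were 3.14 for Fas, 3.89 for BB218582 and 3.00 for Ccl7, all lost with the mouse as a block and lost in 8, 7 and 9 of 13 alternatives in that order. Against facial neurons they were −4.52 for 2010001M06Rik, lost in 3 of 13 alternatives, and 3.65 for Rasa1, lost in 8 of 13.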

How the results depend on the processing

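Smn1, Fas, Cdkn1a and Bglap2 kept their direction and stayed past the threshold in all 17 alternatives, and none of the 12 genes changed sign. Gtse1, Psrc1, Fam212b and Snord13 were each lost in 2, Plk2 in 4, Cox6b2 in 6, 9230114K14Rik in 11 and Trim72 in 14. The count of 12 genes was 7 with only the day 10 groups, of which 4 were among the 12. It was 10 with sex as a covariate (10 of the 12) and 14 without a filter (10 of the 12). It was 17 (8 of the 12) without SMA mice 196 and 199, whose numbers lie below those of the other day 10 mice. When 1 mouse was left out the count ran from 8 to 23, the highest without control mouse 253 (11 of the 12). The causes were not tested. Against vagus neurons the 3 genes became 0 in the paired fit with the replicate block, 1 with a pseudocount of 0.1, and 0 to 5 when 1 mouse was left out. Against facial neurons the 2 genes became 1 without a filter and 0 to 4 when 1 mouse was left out, and the block left 2. Against lumbar neurons leaving out 1 mouse gave 0 to 2, and for day 10 against day 2 or day 5 also 0 to 2. The block changed no other count of calls.

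For cholinergic markers the exact permutation p was 0.0714 on summed RPKM and ran from 0.0286 to 0.125 when 1 mouse was left out. For inhibitory and glutamatergic markers it was 0.0317 on summed RPKM (adjusted 0.190). The astrocyte direction turned when RPKM were summed (exact permutation p = 0.0873), as did that of vessel markers (exact permutation p = 0.643). When 1 mouse was left out, the exact permutation p ran from 0.286 to 1 for oligodendrocyte markers, whose direction turned in 5 of 9 cases, from 0.232 to 0.971 for microglia markers, which turned without control mouse 247, and from 0.0179 without control mouse 253 to 0.268 for vessel markers. Genes at a few RPKM rest on few reads, and a gene listed at 0 has no lower bound on its level here.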
